A study of Mus musculus with 9 samples.

Results

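Genes that kidney tubules switch on when they are damaged were followed array by array in the cortex of lean, diabetic and herb-treated diabetic mice. The members were a list of 10 names: Havcr1, Lcn2, Sprr1a, Krt19, Krt18, Krt20, Clu, Spp1, Sox9 and Vcam1. They were chosen with earlier results of these data known. A probe set with a single gene symbol was found for 9 of the 10, against 22180 genes on the array in all, and all 9 were among the 17740 genes that passed the filter on low values. Spp1 had no such probe set in the annotation used and was not analysed here.

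RNA came from kidneys, by the design text their cortex, of male mice aged 20 weeks on the C57BLKS/J background, with 3 arrays in each of 3 groups. The lean controls were db/m mice, which carry 1 copy of the leptin receptor mutation. The db/db mice carry the mutation on both copies, become obese and diabetic, and were given saline by gavage over the 12 weeks of treatment. The third group, db/db+TSF, was db/db mice gavaged with Tang-shen Formula, a Chinese herbal formula, at 2.4 g/kg/day for 12 weeks. The labels count 9 mice in each db/db group and do not say what the db/m mice were given. The mutation is present in every tissue of db/db mice, so the model does not separate a kidney effect from obesity and high blood glucose. The labels mark the arrays as separate biological replicates without tying them to single mice, and p-values measure the spread between these arrays.

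The proximal tubule reabsorbs most of the glomerular filtrate and is the segment most easily hurt by lack of oxygen, toxins or filtered protein. Injured tubule cells lose features of their mature state and put out a characteristic set of genes: cell-surface and secreted proteins, simple keratins of the cytoskeleton, and regulators of regrowth. In kidney disease such genes are often seen in scattered tubules among healthy ones, so a whole-cortex RNA sample averages over both. In such bulk RNA, fewer cells of a kind and less RNA per cell cannot be told apart.

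All levels below are log2(intensity + 1) of the brightest probe set of a gene, and differences are on the same scale. They understate the change of dim genes. Array medians over all probe sets lay between 3.50 and 3.61. Levels of different probe sets are not comparable with each other. A gene is said to rise or fall only where its limma adjusted p was under 0.05 over all genes tested. The tissue label fits its markers: all 18 proximal tubule markers with a probe set passed the filter, and Slc34a1, the phosphate transporter of that segment, lay between 12.12 and 12.27 in the 9 arrays. The array of db/db replicate 3 stands apart by its neutrophil genes, and results that rest on it are given with and without it.

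Sprr1a rose most. It encodes a small proline-rich protein of the squamous cell envelope that tubules make after injury, and in nerve and heart it is likewise a gene of injured cells. Its promoter is shown because Sprr1a is the member with the largest difference in db/db, and AP-1, the Jun and Fos dimer, is a well-known regulator of this gene. The RefSeq promoter table (GRCm38.p6) held 6 of the 10 members. The sequence runs 5′ to 3′ from 250 bases before the start of transcription to 50 after it, at chr3:92485832-92486131 on the minus strand, with matches to AP-1 and the TATA box in capitals.
Sprr1a: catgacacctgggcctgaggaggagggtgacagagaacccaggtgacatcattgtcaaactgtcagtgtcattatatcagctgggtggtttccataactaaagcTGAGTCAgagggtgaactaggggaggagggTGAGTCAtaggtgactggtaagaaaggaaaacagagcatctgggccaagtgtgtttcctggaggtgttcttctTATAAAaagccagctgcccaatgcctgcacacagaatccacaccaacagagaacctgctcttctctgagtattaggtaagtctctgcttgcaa

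The AP-1 letters searched were TGANTCA, which reads the same on both strands at its fixed bases, and the TATA box was TATAAA on either strand. Sprr1a had 2 AP-1 matches, with their first bases at positions -146 and -116 from the start site. Among 32851 promoters of this length, 7.81% held at least 1 AP-1 match and 0.46% held 2 or more. TATAAA, which does not overlap the AP-1 matches, began at position -43 in Sprr1a and was present in 13.6% of promoters. Letters for NF-kB and STAT (TTCNNNGAA), searched on both strands and held by 8.46% and 8.3% of promoters, were not found in this window. Havcr1, which did not pass in any comparison, was the other member with an AP-1 match, 1 in 1 of its 3 windows. A match describes the letters only, and no binding was measured.

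In the 3 db/m arrays Sprr1a measured 3.95, 4.58 and 3.86. In db/db it measured 5.77, 5.64 and 5.91. Treated db/db+TSF arrays measured 5.26, 4.39 and 4.36. Every db/db array was above every other array of the series, while db/db+TSF overlapped db/m through 2 of its 3 arrays. The rise in db/db over db/m was 3.12-fold (log2 difference 1.64, SE 0.24, limma adjusted p = 0.0093). Only 4 of the 17740 genes tested had a larger rise. The rise fell short of the threshold in 1 of the 9 fits that left out an array, without db/m replicate 3 (log2 difference 1.51, adjusted p = 0.0516).

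**Figure D1:**
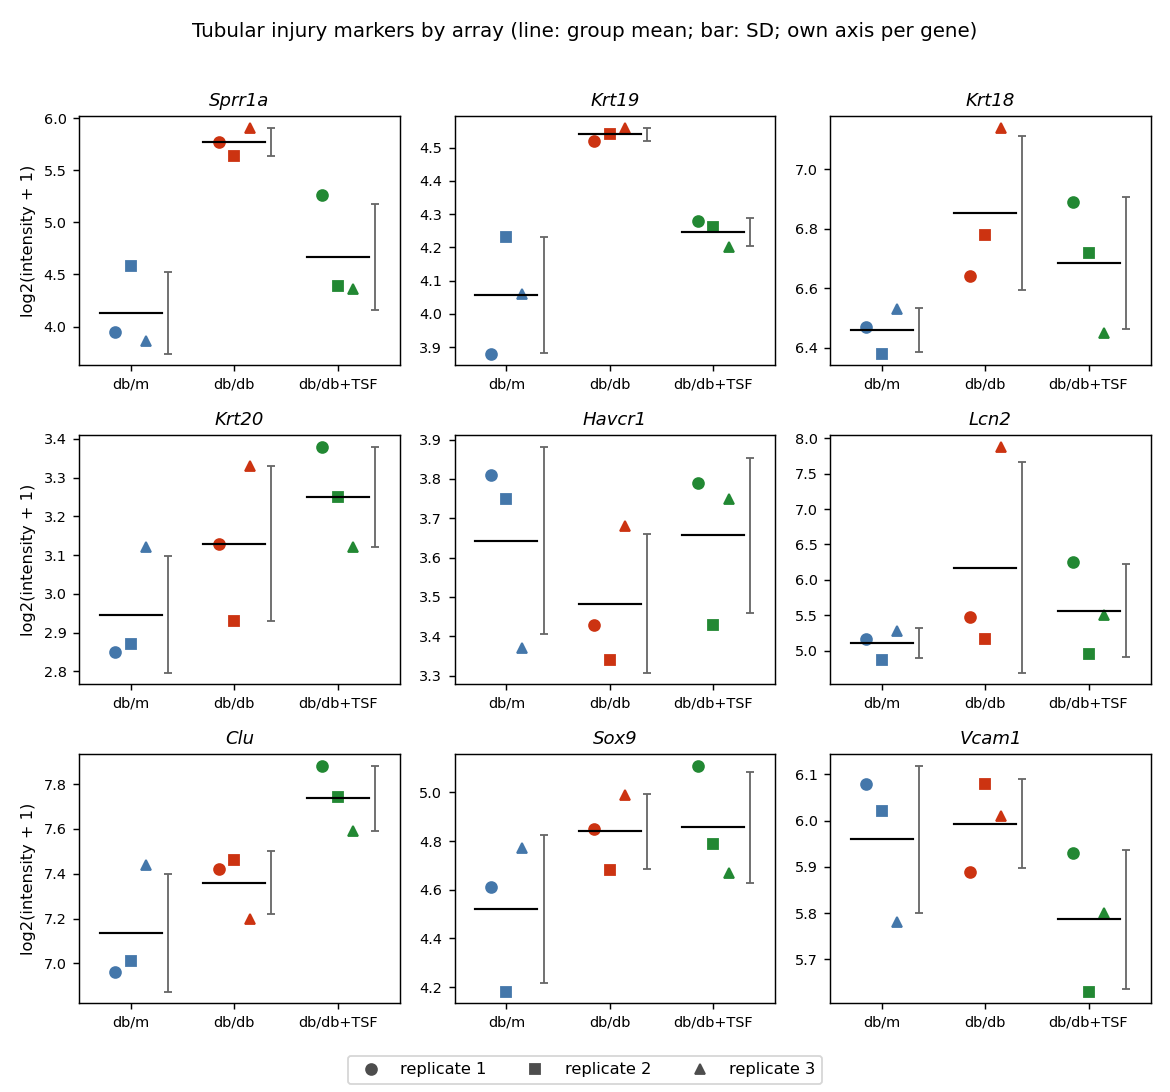
Level of the 9 measured injury markers in each of the 9 arrays, as log2(intensity + 1) on the vertical axis of each panel, by group on the horizontal axis. Points are arrays, shaped by replicate number, lines are group means and bars are SDs, n = 3. Sprr1a and Krt19 in db/db sit above every other array, Clu in db/db+TSF does the same, and 1 db/db array holds the high Lcn2 value of 7.88.

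Against db/db, Sprr1a was lower in db/db+TSF by a log2 difference of -1.10 (SE 0.24, 95% interval -1.63 to -0.57). The limma adjusted p was 0.237, so this difference did not pass, although the 2 groups did not overlap. By size it was among the larger ones, with 10 of 17740 genes lower still. Removing db/db+TSF replicate 1, the array nearest to db/db, moved it to -1.40 (adjusted p = 0.113), and the remaining single-array removals gave values of -1.17 to -0.95. Against db/m, db/db+TSF differed by 0.54 (SE 0.24, adjusted p = 0.283).

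The other small proline-rich genes on the array gave no such pattern. Of the 14 listed, 10 had a probe set and 4 passed the filter, and 0 of those 4 passed in any comparison. Sprr1b, the nearest relative by name, spanned 3.53 to 3.74 among db/m arrays and 3.45 to 3.75 among db/db arrays, with 3.54 to 4.24 under treatment. Its log2 difference between db/db and db/m was -0.06 (adjusted p = 0.892).

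Among all tested genes, the 3 whose levels, centred on their own mean over the 9 arrays, stayed closest to Sprr1a were Abcb1b, Slc14a1 and Psca. Their mean absolute distances were 0.238, 0.335 and 0.353, where Sprr1a itself spans 2.05. Abcb1b, a drug efflux pump, rose in db/db (log2 difference 1.25, adjusted p = 0.0144). Slc14a1 encodes a urea transporter (0.77, adjusted p = 0.199), and Psca a surface protein of urothelium (0.79, adjusted p = 0.106).

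Urothelium, the lining of the renal pelvis, can be carried along when cortex is dissected, and it expresses several of the genes described here. Psca measured 3.54, 3.87 and 3.76 in db/m, 4.46, 4.14 and 4.94 in db/db, and 3.97, 3.31 and 3.53 in db/db+TSF, so db/db was above both other groups in every array. Psca was picked for closeness to Sprr1a over these same arrays, so a like pattern follows from the choice. The share of all genes with this separation was not counted. Upk1a, a urothelial plaque protein, gave 4.21, 4.78 and 4.81 in db/m, 5.58, 4.98 and 5.30 in db/db, and 4.85, 4.28 and 4.37 in db/db+TSF (log2 difference 0.68 between db/db and db/m, adjusted p = 0.154). Upk1b and Upk2, 2 further plaque genes named after their values were seen, differed by 0.58 and 0.44 in that comparison (adjusted p = 0.32 and 0.266). The other parietal epithelial and urothelial markers tested differed less. They ran from 0.22 for Upk3b to -0.05 for Grhl3, with Upk3a at 0.19, Krt14 at 0.03 and Trp63 at 0.02.

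Of the 12 parietal epithelial and urothelial markers tested, 11 lay above 0 in db/db against db/m, beside 52.2% of all genes, and 0 passed. When db/db+TSF was set against db/db, 3 of 12 lay above 0, beside 43.9% of all genes. The medians were 0.20 and -0.17, against 0.01 and -0.02 for all genes. Without db/db replicate 3 they were 0.15, with 10 of 12 above 0, and -0.09. The summed intensity of the whole list lay between 855 and 1330 in db/m, 1100 and 1230 in db/db and 969 and 1030 under treatment, but Cldn1 and Pax8, bright genes that are not particular to urothelium, made up 82.9% to 90.3% of it. The other 10 genes, summed after those levels were seen, gave sums between 125 and 156 for db/m, between 155 and 196 for db/db and between 121 and 138 for db/db+TSF. On this sum db/db was above the treated group in every array and overlapped db/m only at the edge, its lowest array at 155 against the highest db/m array at 156. The part of urothelial tissue in the Sprr1a result was not tested.

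Of the simple keratins among the members, Krt19 passed and Krt18 and Krt20 did not. Krt18 and Krt19 are type I keratins of simple epithelia, kept at low levels in healthy proximal tubule and higher in collecting duct, and Krt20 belongs to intestinal and urothelial lining and to injured proximal tubule. Krt19 measured 3.88, 4.23 and 4.06 in db/m. The db/db arrays lay close together at 4.52, 4.54 and 4.56, above every other array. Under treatment the values were 4.28, 4.26 and 4.20, all below db/db and with 1 inside the db/m range.

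The Krt19 rise in db/db was 1.4-fold (log2 difference 0.49, SE 0.10, limma adjusted p = 0.0481). It is a borderline call. It held in 1 of 9 fits that left out an array, without db/m replicate 2, and the adjusted p reached 0.137 without db/m replicate 1. The difference itself stayed between 0.40 and 0.57 in those 9 fits. With the replicate number as a block the adjusted p was 0.0759. The spread among the 3 db/db arrays, an SD of 0.02, was smaller than the 0.18 of db/m. Against db/db, db/db+TSF differed by -0.30 (SE 0.10, adjusted p = 0.318).

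Krt18 gave 6.47, 6.38 and 6.53 in db/m, 6.64, 6.78 and 7.14 in db/db, and 6.89, 6.72 and 6.45 in db/db+TSF. The db/db arrays were all above db/m, and the treated arrays spanned both. The log2 difference of db/db from db/m was 0.40 (SE 0.14, adjusted p = 0.242) and was 0.25 without db/db replicate 3. A second, dimmer Krt18 probe set differed by 0.09. Krt20 was near the low end of the scale, with 2.85, 2.87 and 3.12 in db/m, 3.13, 2.93 and 3.33 in db/db, and 3.38, 3.25 and 3.12 in db/db+TSF. Its groups overlapped in all 3 pairings (log2 difference 0.18 for db/db against db/m, adjusted p = 0.557).

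Collecting duct cells hold much of the cortex's simple keratin. Of 16 collecting duct markers 13 lay above 0 in db/db against db/m, beside 52.2% of all genes. Their median was 0.19, and 0 passed. Their summed intensity lay between 4550 and 5220 in db/m, between 5320 and 5680 in db/db and between 5340 and 5880 under treatment. Both diabetic groups were thus above db/m on this sum. When treated cortex was set against untreated diabetic cortex, 9 of the 16 markers lay above 0, beside 43.9% of all genes, and 0 passed. Among those below 0, named after their values were seen, were Aqp2, Aqp3, Aqp4 and Avpr2 (log2 differences -0.53, -0.36, -0.96 and -0.45). Krt19 was likewise lower with treatment and did not pass. The part of collecting duct in the keratin values was not tested.

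Across the list, 2 of 9 members passed in db/db against db/m, Sprr1a and Krt19, both upward. Of all 17740 genes 187 passed, 1.05%. The groups did not overlap, with db/db higher, in 3 of 9 members (Krt18 is the third), where 10.4% of all genes did so. The median log2 difference of the 9 was 0.32 and 8 of the 9 lay above 0. For all genes the median was 0.01 and 52.2% lay above 0. Because the members were chosen with earlier results of these data known, the shares of all genes give context and no test. Without db/db replicate 3 the count fell to 1, Sprr1a, and the median was 0.25.

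**Figure D2:**
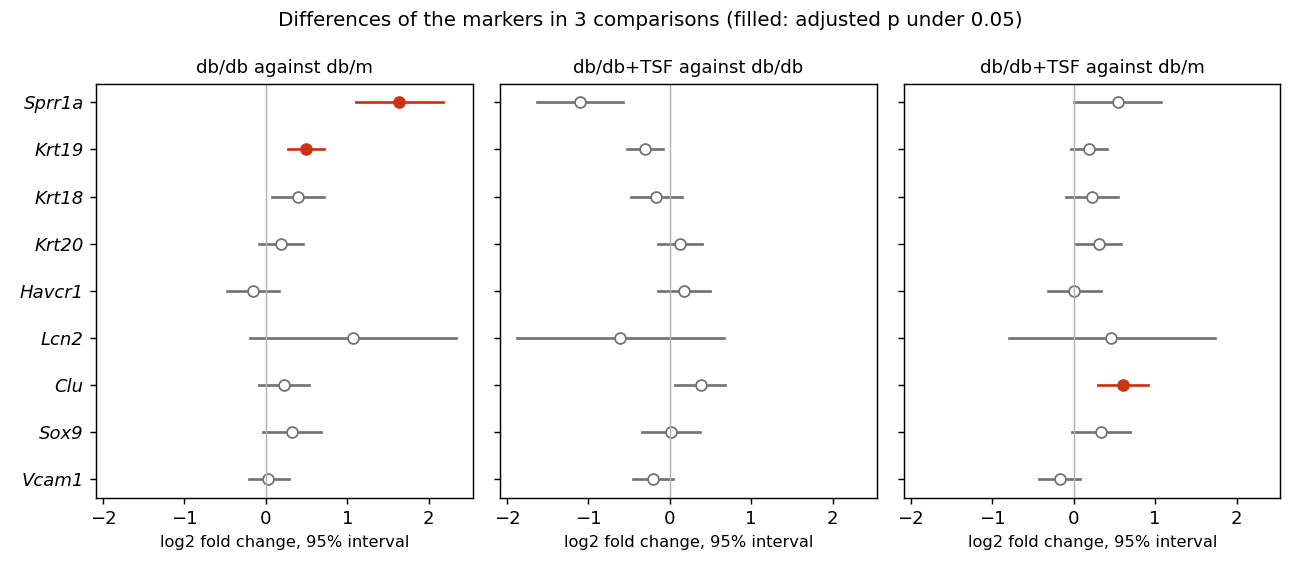
Log2 fold change of each marker (point) with its 95% interval from the limma fit (line) on the horizontal axis, in 3 comparisons of groups of 3 arrays. Filled points passed an adjusted p of 0.05: Sprr1a (1.64) and Krt19 (0.49) in db/db against db/m, and Clu (0.60) in db/db+TSF against db/m. The first and the last comparison share the db/m arrays, and the first and the middle one share the db/db arrays.

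The classic secreted and surface markers of acute injury did not pass. Havcr1 encodes KIM-1, a phagocytic receptor that proximal tubule cells place on their surface when hurt. It measured 3.81, 3.75 and 3.37 in db/m, 3.43, 3.34 and 3.68 in db/db, and 3.79, 3.43 and 3.75 in db/db+TSF. The 3 groups lay on top of each other, near the array medians. The log2 difference of db/db from db/m was -0.16 with a 95% interval of -0.48 to 0.16 (adjusted p = 0.669).

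Lcn2 encodes NGAL, an iron-siderophore carrier released by injured distal tubule and stored in neutrophil granules. It gave 5.17, 4.87 and 5.28 in db/m, 5.47, 5.17 and 7.88 in db/db, and 6.25, 4.95 and 5.50 in db/db+TSF. A single db/db array carried the group's difference of 1.07 (SE 0.57, adjusted p = 0.442), which was 0.21 without that array. Against db/db the treated group differed by -0.61, and by 0.25 without db/db replicate 3, so the sign turned with that array.

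Neutrophil granule genes were high in the same array. S100a8, a calcium-binding protein of neutrophils, measured 6.10 there and between 2.16 and 2.54 in the other 8 arrays. S100a9, its partner, measured 5.14 there and 2.89 to 3.48 elsewhere. Mmp8, the neutrophil collagenase, was also the gene closest to Lcn2 across the 9 arrays (mean absolute distance 0.266, where Lcn2 spans 3.01), with 5.95 in db/db replicate 3 and 2.68 to 3.36 elsewhere.

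The summed intensity of 14 neutrophil markers was 682 in db/db replicate 3, against 116 to 127 in db/m and 122 to 137 in db/db+TSF. All 12 tested lay above 0 in db/db against db/m, beside 52.2% of all genes, with a median of 0.50, and 0 passed. Without that array 7 of 12 lay above 0 and the median was 0.05. In db/db+TSF replicate 1, where Lcn2 measured 6.25, S100a8 measured 2.16, S100a9 3.29 and Mmp8 3.36. That Mmp8 value was its highest outside db/db replicate 3, and that S100a8 value was its lowest in any array. The part of neutrophils in the Lcn2 values of these 2 arrays was not tested. Next in closeness to Lcn2 were Ddit4, a stress-induced brake on mTOR (distance 0.28), and Tmem100 (0.318). In those 2 arrays Ddit4 measured 7.64 and 6.84 and Tmem100 5.07 and 4.74, the highest values of each. Mmp8, Ddit4 and Tmem100 were picked for closeness to Lcn2 over these same arrays, so sharing its high arrays follows from the choice.

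**Figure D3:**
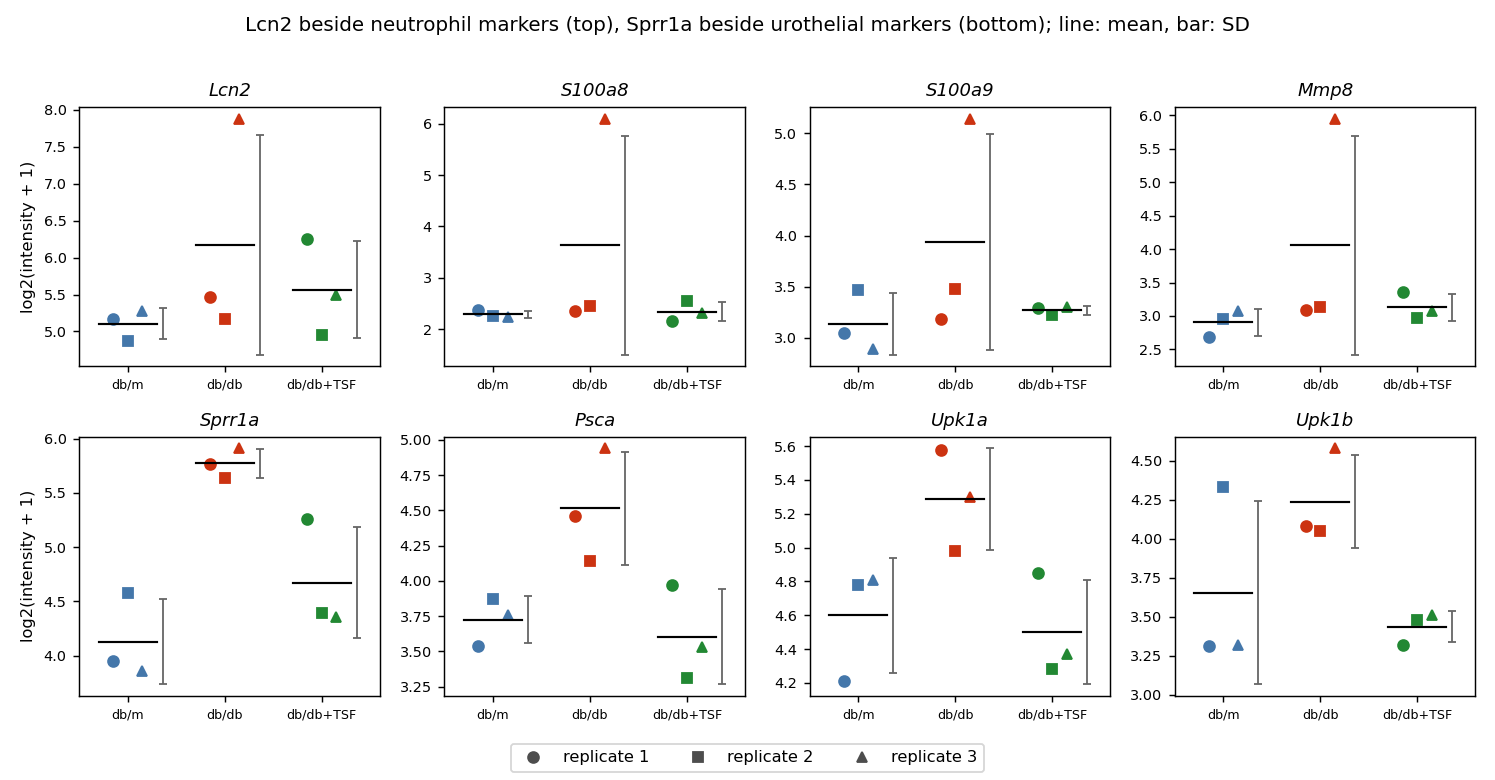
Lcn2 beside 3 neutrophil genes (top) and Sprr1a beside 3 urothelial genes (bottom), as log2(intensity + 1) by group; points are arrays shaped by replicate number, lines are means and bars are SDs, n = 3. Lcn2, S100a8, S100a9 and Mmp8 are all highest in db/db replicate 3, and Sprr1a and Psca are higher in all 3 db/db arrays than in any other. Mmp8 and Psca were picked for closeness to Lcn2 and Sprr1a over these same arrays.

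Clu encodes clusterin, a secreted chaperone that protects stressed cells. It measured 6.96, 7.01 and 7.44 in db/m, 7.42, 7.46 and 7.20 in db/db, and 7.88, 7.74 and 7.59 in db/db+TSF. The 3 treated arrays were above all 6 others. Clu was the member that rose in db/db+TSF against db/m, 1.52-fold (log2 difference 0.60, SE 0.14, limma adjusted p = 0.0413). The call held in 2 of 9 fits that left out an array, with db/m replicate 3 or db/db replicate 3 removed, and the adjusted p reached 0.134 without db/m replicate 1. It was lost with median scaling of the arrays (adjusted p = 0.0678) and with the replicate number as a block (adjusted p = 0.0803). Against db/db the difference was 0.38 (SE 0.14, adjusted p = 0.351), and db/db exceeded db/m by 0.22 (adjusted p = 0.506).

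Sox9 encodes a transcription factor that marks tubule cells re-entering a repair state. It gave 4.61, 4.18 and 4.77 in db/m, 4.85, 4.68 and 4.99 in db/db, and 5.11, 4.79 and 4.67 in db/db+TSF. Both diabetic groups had means above db/m, by log2 differences of 0.32 and 0.34 (SE 0.16, adjusted p = 0.404 and 0.319), and both overlapped db/m. Vcam1 encodes an adhesion molecule of activated endothelium and of tubule cells that fail to repair. It stayed between 5.63 and 6.08 in all arrays, with a log2 difference of 0.03 in db/db against db/m and a 95% interval of -0.21 to 0.28 (adjusted p = 0.919). Of 16 endothelial markers, 8 lay above 0 in that comparison, beside 52.2% of all genes, with a median of 0.00.

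Treated and untreated diabetic cortex were compared to see what the herbal formula did to these genes, and 0 of 9 members passed, as did 0.0% of all genes. At an unadjusted limma p under 0.05 there were 3 members, Sprr1a and Krt19 lower and Clu higher, and 11.7% of all genes. The groups did not overlap in the same 3 genes. Among all genes 12.3% were lower and 7.81% higher without overlap. The median difference of the 9 was -0.17, against -0.02 for all genes, and it was 0.09 without db/db replicate 3. Signs were thus mixed, with 4 of 9 above 0, beside 43.9% of all genes. The db/db arrays are the same as in db/db against db/m, so a rise there and a lower treated value are not independent.

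In db/db+TSF against db/m, which uses the same db/m arrays as the first comparison, 1 of 9 members passed, Clu, and 3.13% of all genes did. The groups did not overlap in 1 member, again Clu, with 9.76% of all genes higher without overlap. The median of the 9 was 0.31. Setting the mean of both diabetic groups against db/m, Sprr1a passed (log2 difference 1.09, SE 0.21, adjusted p = 0.0187) with 2.94% of all genes, and 6 of 9 members had an unadjusted limma p under 0.05, against 16.5% of all genes. The Sprr1a call in that comparison was lost without db/m replicate 1 (adjusted p = 0.0909) or without db/m replicate 3 (0.0921).

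**Figure D4:**
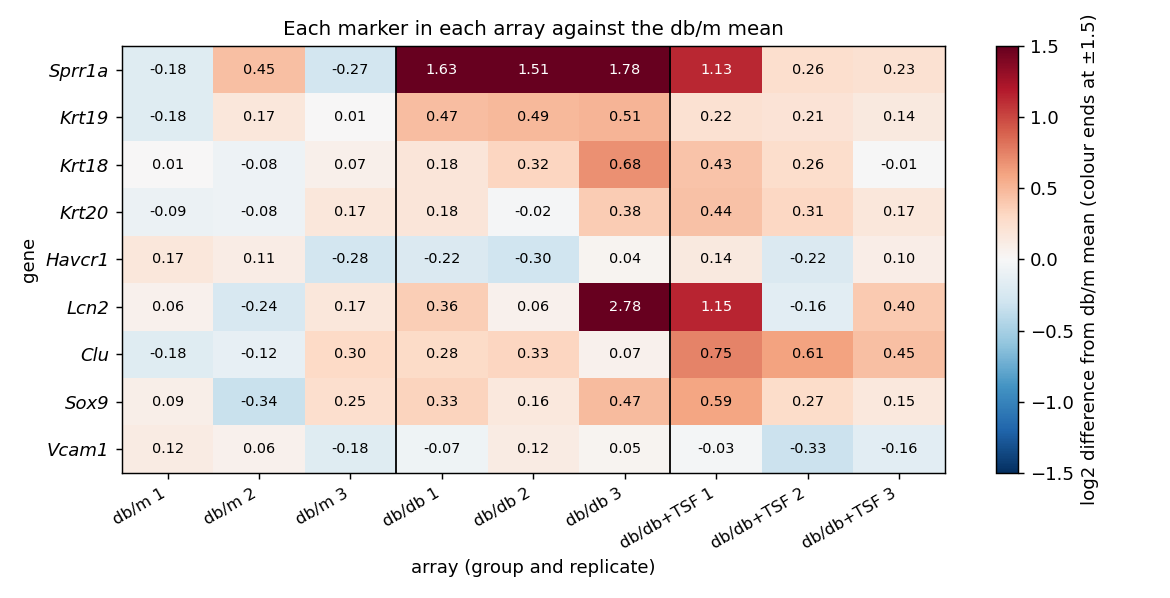
Log2 difference of each marker (rows) in each array (columns) from the mean of the 3 db/m arrays, printed in each cell and coloured up to 1.5 in either direction. The highest value of 4 markers lies in db/db replicate 3 and of 3 others in db/db+TSF replicate 1, and Vcam1 and Havcr1 stay within 0.33 of the db/m mean.

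Read by array, the highest value of Lcn2, Sprr1a, Krt19 and Krt18 fell in db/db replicate 3, and that of Krt20, Clu and Sox9 in db/db+TSF replicate 1. The lowest value of 7 of the 9 members fell in a db/m array. In db/db replicates 1, 2 and 3, 6, 5 and 6 members lay above every db/m array. The treated counts were 7, 5 and 2, so treated replicate 1 had more such members than any other array and treated replicate 3 the fewest. Neither these counts nor that of the lowest values was made over all genes, so they have no background to be read against.

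A wider list of 44 tubular injury and repair genes, of which 39 were tested, showed how far the pattern reached. In db/db against db/m, 0 rose and 0 fell, 25 lay above 0, beside 52.2% of all genes, and the median was 0.11. Without db/db replicate 3 the count above 0 was 23 and the median 0.02, against 0.01 for all genes. Those of smallest p were S100a6, a calcium-binding protein of injured and proliferating tubules (0.67, SE 0.14, adjusted p = 0.0502), and Nupr1, a stress-induced chromatin protein (0.82, SE 0.18, adjusted p = 0.0612). S100a6 measured 4.95, 4.84 and 5.15 in db/m, 5.59, 5.47 and 5.88 in db/db, and 5.10, 4.78 and 5.17 in db/db+TSF. Like Sprr1a and Krt19, it was higher in each db/db array than in any other array, and so was Nupr1 (4.85 to 5.27, 5.58 to 6.36 and 5.30 to 5.48). Both genes were named for their small p in db/db against db/m, so lying above db/m follows from the choice. Of all genes 10.4% lay above db/m without overlap and 12.3% were lower in db/db+TSF than in db/db. The share with both was not counted. Against db/db, db/db+TSF differed by -0.63 for S100a6 and -0.50 for Nupr1 (adjusted p = 0.237 and 0.344).

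With treatment, set against db/db, 0 of the same 39 genes passed, with 14 above 0, beside 43.9% of all genes, and a median of -0.06. Without db/db replicate 3, 19 lay above 0, beside 43.6% of all genes, and the median was -0.08. Against db/m 1 of the 39 passed in the treated group, beside 3.13% of all genes. It was Itgb6, an epithelial integrin subunit that activates TGF-beta, which fell (log2 difference -0.73, SE 0.16, adjusted p = 0.0335). Injury genes that are often cited beside the members, named here after their values were seen, overlapped between db/m and db/db for Cd44 and Timp1. Cd44, the hyaluronan receptor, measured 3.65 to 3.82 in db/m and 3.50 to 3.87 in db/db. Timp1, an inhibitor of matrix proteases, measured 2.94 to 3.04 and 2.95 to 3.09. The mesenchymal filament gene Vim was slightly above db/m in each db/db array (8.96 to 8.99 and 9.00 to 9.29) and did not pass (log2 difference 0.16, adjusted p = 0.524). Other genes of this list were above db/m in each db/db array too, as were 10.4% of all genes. Among them were Prom1, Lgals3, Jun, Fstl1 (6.36 to 6.56 and 6.71 to 6.98) and the keratin gene Krt7 (5.59 to 5.72 and 5.99 to 6.18, limma adjusted p = 0.0976). Dcdc2a was below db/m in each (4.52 to 4.63 and 4.36 to 4.49), as were 8.28% of all genes.

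Mature proximal tubule genes did not fall as a group beside these values. Of 18 markers 0 passed in db/db against db/m and 10 lay above 0, beside 52.2% of all genes. The median was 0.02, with summed intensities of 40500 to 43700 in db/m and 40600 to 43100 in db/db. In db/db+TSF against db/m 1 of the 18 passed, beside 3.13% of all genes. It was Acsm2, a fatty acid-activating enzyme, which fell (-0.51, SE 0.11, adjusted p = 0.0346).

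Of 14 loop and distal tubule markers, all 14 lay above 0 in db/db against db/m, beside 52.2% of all genes. Calb1 and Slc8a1, both of calcium reabsorption, rose (0.68 and 0.88, adjusted p = 0.0483 and 0.0366), beside 1.05% of all genes called, and neither passed without db/db replicate 3. In the treated group against db/m, where Clu rose and 3.13% of all genes passed, 3 of the 14 rose: Calb1 (1.04, adjusted p = 0.00336), Slc8a1 (1.12, adjusted p = 0.00681) and Pvalb, a calcium-binding protein of the distal convoluted tubule (0.53, adjusted p = 0.0215). These 3 calls held without db/db replicate 3, and the same 3 genes passed for both diabetic groups against db/m, with and without that array.

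Of macrophage and lymphocyte markers, 2 of 16 and 1 of 13 lay above 0 in db/db against db/m, beside 52.2% of all genes. In that comparison 1 fell, the T cell gene Cd3e (-0.78, SE 0.14, adjusted p = 0.0239), beside 0.462% of all genes. It did not pass without db/db replicate 3. Beside the Clu rise in db/db+TSF against db/m, 5 of the 16 macrophage markers fell, where 1.92% of all genes did. They were Csf1r, the receptor macrophages need to survive (-0.83, adjusted p = 0.0301), Ms4a7 (-0.80, 0.033), Adgre1 (-0.56, 0.0239), Tyrobp (-0.56, 0.0439) and Cd68 (-0.42, 0.0267). The T cell receptor genes Cd3e and Cd3g fell there too (-0.58 and -0.92, adjusted p = 0.0467 and 0.0168), and Cd3e did not pass without db/db replicate 3. For both diabetic groups against db/m the falls numbered 4 of 16 and 2 of 13, beside 1.53% of all genes. Without that array they numbered 1 and 2. The part of these cells in the Clu value was not tested.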

How the data were processed

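The deposited table holds intensity values on a linear scale, 1 per probe set and array, made by the authors with Affymetrix Expression Console and Transcriptome Analysis Console per the submitters' processing notes. How background was corrected and arrays were normalized and summarised is not given in the sources used here. Without detection calls, dim genes may lie at background. For arrays, their number limits the precision.

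Of 41345 probe sets 23521 had 1 gene symbol in the platform annotation, 1814 had several and 16010 were not named in it. Entrez identifiers of 23328 matched a RefSeq table of GRCm38 and 0 symbols changed. The brightest probe set stood for its gene. Values were transformed as log2(value + 1), and genes whose mean lay below 2.65, the 30th percentile over probe sets, were left out. One limma fit (version 3.58.1, R version 4.3.3; lmFit, eBayes, 1 mean per group) covered all 9 arrays and 17740 genes, with Benjamini-Hochberg adjustment over all of them and a threshold of 0.05. The fit was tested on simulated data. Each adjusted p, SE and interval comes from this fit.

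The members and gene lists were chosen with earlier results of these data known. The naming rule took all members, the list genes past the threshold (up to 4 per comparison) or else the 2 of smallest p, S100a8 and S100a9, and the 3 genes nearest in pattern to each member spanning at least 1 log2 unit. Red cell markers, 5 listed, had 0 probe sets. Alternatives covered probe set choice, filter, pseudocount, scaling, variance model, array weights, arrays fitted, threshold, replicate number as a block and leaving out each array.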

Additional observations from a re-analysis of the deposited data

How the results depend on the processing

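Counts of members past the threshold were recomputed under each alternative. In db/db against db/m the count of 2 became 1, Sprr1a alone, without a pseudocount, with an intensity trend in eBayes (robust or not), with array weights, in a fit of only those 2 groups and with the replicate number as a block. It was 0 to 2 with 1 array left out and 0 without db/m replicate 3. In db/db+TSF against db/m the count of 1 became 0 with median scaling, in the 2-group fit and with the replicate block, and was 0 to 1 with 1 array left out. In the mean of both diabetic groups against db/m the count of 1 became 2 with array weights (Sprr1a and Clu) and 3 at a threshold of 0.1 (Sprr1a, Krt19 and Clu), and was 0 to 2 with 1 array left out. In db/db+TSF against db/db it was 0 under every alternative run. For single members, 731 of 779 recomputed differences kept direction and side of the threshold, 27 lost the call, 5 gained one and 16 changed sign. The sign changes were among differences not past the threshold: Vcam1 in db/db against db/m (-0.02 with quantile normalization and -0.02 with array weights, and -0.06 to 0.09 with 1 array left out), Sox9 in db/db+TSF against db/db (-0.04 with median scaling, -0.01 with array weights, -0.11 to 0.11), Havcr1 in db/db+TSF against db/m (-0.04 with median scaling, -0.04 with quantile normalization, -0.05 with array weights, -0.13 to 0.12), Havcr1 in both groups against db/m (-0.21 to 0.01) and Lcn2 in db/db+TSF against db/db (-1.11 to 0.25). The cause was not tested. Same-numbered arrays of different groups deviated together with correlations of -0.08 to 0.15, 2 of 9 over 0.1, so the numbers are not taken as pairs. A fit of the 2 groups compared gives nothing new for the mean of both diabetic groups, which uses all 9 arrays, and Krt20 was under the 50th percentile filter.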
